A study of Mus musculus with 9 samples.

Results

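Claudins are the proteins that build the strands of the tight junction, the belt that joins neighbouring epithelial cells and sets which ions and how much water can pass between them. Some claudins act as seals and others as selective pores, and each segment of the nephron carries its own mixture. In the mouse kidney Cldn2 and an anion-pore form of Cldn10 belong to the proximal tubule, Cldn16 and a cation-pore form of Cldn10 to the thick ascending limb, and Cldn3, Cldn4, Cldn7 and Cldn8 to the distal nephron and collecting duct. The 10 genes described here are Cldn1, Cldn2, Cldn3, Cldn4, Cldn6, Cldn7, Cldn8, Cldn10, Cldn12 and Cldn16, taken by name out of 34 numbered claudin genes among the 57010 genes of the count table, and the question put to them is which segment's junction genes changed when kidney cells met TNF, and whether blocking NF-kB altered that.

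The cells were primary renal cells of wild-type mice, obtained by enzymatic digestion of whole kidney, grown in serum-containing medium, trypsinised and replated before treatment, so they are a mixed and passaged culture and not sorted tubules. Of 9 RNA-seq libraries, 3 were from cells given PBS, 3 from cells given TNF at 20 ng/mL, an inflammatory cytokine, and 3 from cells given the same dose of TNF together with ACHP at 1 µM, which blocks NF-kB activation, all collected at 6 h. There was no group with ACHP alone, so the contrast with PBS joins the effects of both agents. Nothing in the labels says whether replicates came from separate animals or separate cultures, so p-values measure only the spread between these libraries.

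Total counts ran from 14194295 to 20892176 per library. Vcam1, the adhesion gene the study was built around, was 2.27 higher on the log2 scale with TNF than with PBS and 2.15 lower again with ACHP than with TNF alone (edgeR log2 fold change -2.15), and all 6 NF-kB target genes listed as a treatment check moved the same way in both comparisons. Some defining segment markers were absent or nearly so: Aqp2 (collecting duct water channel), Slc22a6 (proximal organic anion transporter) and the urothelial gene Upk3a had 0 counts in all libraries, and Umod (thick ascending limb) had 14 counts in total. Other segment genes were present with PBS, such as Scnn1a of the collecting duct at a mean of 44.5 CPM, Trpm6 of the distal convoluted tubule at 44.5 CPM, and Ggt1, Lrp2 and Cubn of the proximal tubule at 27.3, 8.41 and 7.99 CPM. Further listed markers were low. Slc12a3 of the distal convoluted tubule was at 2.13 CPM with PBS. Slc34a1 and Hnf4a of the proximal tubule and Avpr2 of the collecting duct had 1, 9 and 2 counts in total. Only 5 of 15 proximal tubule, 7 of 9 distal convoluted tubule and 9 of 16 collecting duct genes had enough counts to be tested. The broad epithelial genes Cdh1 and Epcam were abundant, at means of 1072 and 422.3 CPM with PBS (counts scaled by library total and TMM factor). One set of libraries stood apart: the summed level of 12 neuron genes was 99.0 and 84.5 CPM in PBS replicates 2 and 3 and 43.2 to 73.1 CPM in the TNF libraries, but 19.9 CPM in PBS replicate 1 and 17.8 to 19.6 CPM with TNF and ACHP. Claudin differences that involve the ACHP group were therefore also computed with a term for PBS replicates 2 and 3 and all TNF libraries. No library with TNF and ACHP carried the term, so only the PBS libraries told it apart from ACHP versus TNF. Values with it were less certain: the SE of Cldn8 for ACHP versus TNF was 0.20 without and 0.31 with the term. A call lost with the term does not show that neural content made the difference, which was not tested.

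The first extracellular loop of claudins carries a conserved tryptophan and a short glycine-leucine-tryptophan stretch near it. The coding bases around that stretch are shown for the collecting duct claudins and Cldn1, because these genes carried the results and their sequences bear on whether reads could be confused between family members. Each line is 51 bases of the GRCm38 assembly with GENCODE M21 transcripts, read 5′ to 3′ on the coding strand, and capitals mark the glycine, leucine and tryptophan codons.
Cldn8: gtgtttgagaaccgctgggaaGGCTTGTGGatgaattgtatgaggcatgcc
Cldn4: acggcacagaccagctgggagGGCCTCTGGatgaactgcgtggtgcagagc
Cldn3: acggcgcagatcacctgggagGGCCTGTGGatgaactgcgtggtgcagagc
Cldn7: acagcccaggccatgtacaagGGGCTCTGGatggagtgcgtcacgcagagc
Cldn1: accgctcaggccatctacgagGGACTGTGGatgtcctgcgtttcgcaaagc

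These windows lie at chr16:88562862-88562912 on the minus strand for Cldn8, chr5:134946572-134946622 on the minus strand for Cldn4, chr5:134986565-134986615 on the plus strand for Cldn3, chr11:69966050-69966100 on the plus strand for Cldn7 and chr16:26371453-26371503 on the minus strand for Cldn1. Cldn3 and Cldn4, neighbours on chromosome 5, were identical at 47 of the 51 bases (92.2%). Cldn8 was the most distant of the collecting duct set, with 62.7% identity to Cldn3 and Cldn4 and 45.1% to Cldn7. Over whole transcripts no member shared a run of 50 bases with any of 32 other claudin genes. The longest shared runs were 35 bases between Cldn3 and Cldn4, 37 bases between Cldn6 and Cldn9, and 16 bases for Cldn8. On GRCm39, the build of the count table, 3.18% of the exon length of Cldn3 overlapped another gene, and no other member's exons overlapped one. On that build Cldn4 spans bases 134973973 to 134975788 and Cldn3 bases 135015068 to 135016326 of chromosome 5, and Cldn12 lies on the same chromosome at 5539537 to 5564958. Cldn16 (26281885 to 26301515) lies near Cldn1 on chromosome 16. Cldn7 is on chromosome 11 (69855605 to 69858711), Cldn10 on chromosome 14 (119025320 to 119112901), Cldn6 on chromosome 17 (23898223 to 23901420) and Cldn2 on chromosome X (138701577 to 138712135).

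With PBS the junction mixture was led by distal claudins and by Cldn1, and the pore claudins of the proximal tubule were close to the limit of detection. Levels are given between genes as RPKM, that is CPM per kilobase of the exon length listed in the table (mean ± SD, n = 3). Cldn4, a distal claudin that pairs with Cldn8 in a chloride-selective path of the mouse collecting duct, stood first at 499.1 ± 32.5 RPKM. Its mean level was 4.66 times that of Cldn1, a barrier claudin of skin and of the parietal epithelium of the glomerulus, which stood at 107.2 ± 1.04 RPKM.

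Cldn7 followed at 76.3 ± 6.72 RPKM, then Cldn12, a broadly expressed claudin without the usual scaffold-binding tail, at 47.2 ± 1.87, and Cldn3, a sealing claudin, at 39.1 ± 4.87. Cldn6, a claudin of embryonic epithelia, reached 27.4 ± 1.41 RPKM, 4.57 times the next gene. Cldn16, which with Cldn19 forms the paracellular path for magnesium and calcium in the thick ascending limb, was at 5.99 ± 0.51 RPKM. Cldn8 was at 3.70 ± 1.06 RPKM, 10.9 times the level of Cldn2.

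Cldn2, the cation and water pore of the proximal tubule, had only 19, 21 and 16 counts in the PBS libraries, or 0.339 ± 0.072 RPKM. Cldn10 had 6, 11 and 9 counts, or 0.196 ± 0.037 RPKM. The 3 PBS values of each gene lay apart from those of the next gene in the order, down the whole series of 10. This order is a description, and Cldn12 and Cldn3, with a ratio of 1.21, and Cldn1 and Cldn7, with a ratio of 1.40, were the closest neighbours.

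**Figure D1:**
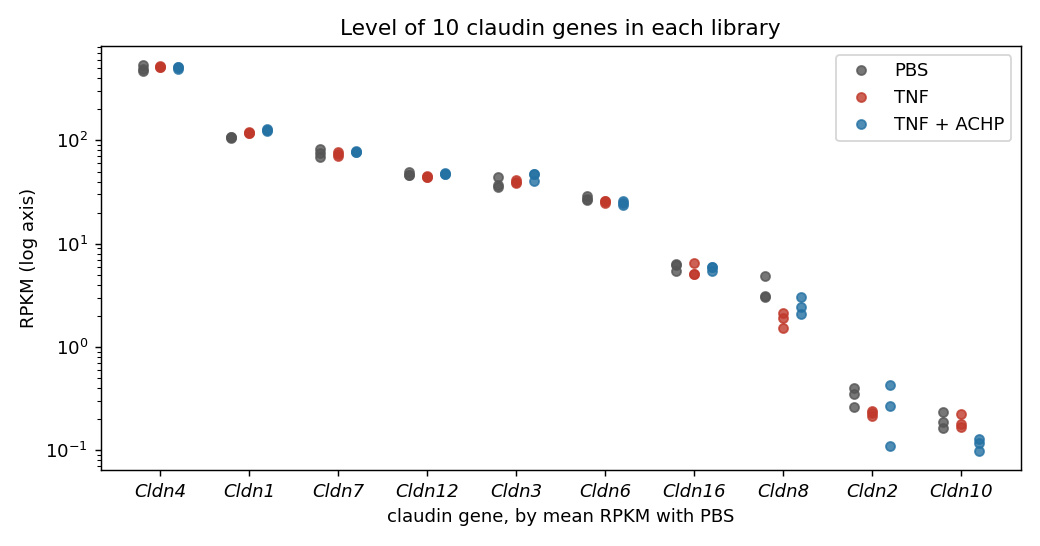
RPKM on a log axis for each of the 10 claudin genes, ordered by their mean with PBS; each point is 1 library, grey for PBS, red for TNF and blue for TNF with ACHP. Cldn4 sits near 499.1 RPKM and Cldn2 and Cldn10 below 1, and only for Cldn8 do the red points stand well below the grey ones at a level above 1 RPKM.

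Added together the 10 genes gave 806.6 ± 45.3 RPKM in the PBS group, 828.5 ± 9.64 in the TNF group and 837.3 ± 21.2 in the ACHP group, and the range of PBS overlapped both others. Cldn4 made up 61.9% of that sum under PBS, 62.4% under TNF and 60.5% under TNF plus ACHP. Cldn8 made up 0.455%, 0.225% and 0.303% in the same order. The gene with the largest relative change was thus a small part of the summed claudin transcript: the mean of Cldn8 with TNF was 1.83 RPKM below PBS (TNF minus PBS, -1.83 RPKM), while that of Cldn1 was 11.9 RPKM above it.

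TNF changed 2 of the 9 members that passed the filter on low counts: Cldn8 fell and Cldn1 rose. These are 22.2% of the tested members, with 1 in each direction, beside 6.22% of all 14747 genes tested that were called at an edgeR adjusted p under 0.05 (3.31% higher and 2.91% lower). The members were listed with earlier results of these data known, so this share is a description. The median log2 fold change over the 9 was -0.08, against 0.00 over all genes. Cldn10 did not pass the filter and was not tested. At an unadjusted p under 0.05 the count was the same, 2 of 9, beside 2763 of all 14747 genes tested, a narrower gap than among the calls.

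Cldn8 (chromosome 16, 88357716 to 88360071, minus strand, GRCm39) had 7.20, 7.36 and 11.6 CPM in the PBS libraries, 3.62, 5.06 and 4.48 CPM in the TNF libraries, and 4.97, 7.25 and 5.74 CPM in the libraries with TNF and ACHP. All TNF values lay below all PBS values, PBS replicate 3 was the highest library, and the ACHP group overlapped both others. The counts behind these values were 102, 132 and 214, then 66, 76 and 70, then 81, 152 and 90. The log2 fold change of TNF versus PBS was -1.01 (SE 0.19, 95% interval -1.41 to -0.61, edgeR adjusted p = 0.0023), a ratio of 0.497. Leaving out 1 library at a time moved it between -1.13 and -0.74, and it stayed called each time. With PBS replicate 1, the PBS library low in neural transcripts, as the only PBS library, it was -0.72 and was not called (edgeR adjusted p = 0.085), and with a term for the neural libraries it was -1.12 (edgeR adjusted p = 0.00055). In bulk RNA, fewer cells that express a gene and less RNA of it per cell cannot be told apart.

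Cldn1 (chromosome 16, 26175392 to 26190591, minus strand, GRCm39) had 523.7, 513.6 and 519.3 CPM in PBS libraries, 576.0, 586.2 and 567.3 CPM in TNF libraries, and 612.2, 595.8 and 625.6 CPM in ACHP libraries. All values with TNF lay above all with PBS, and all with ACHP above both. The rise with TNF was small and tight, 11.1% or 0.15 on the log2 scale (SE 0.03, 95% interval 0.09 to 0.22, edgeR adjusted p = 0.0058). It lost its call with PBS replicate 1 as the only PBS library (0.14, edgeR adjusted p = 0.11).

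**Figure D2:**
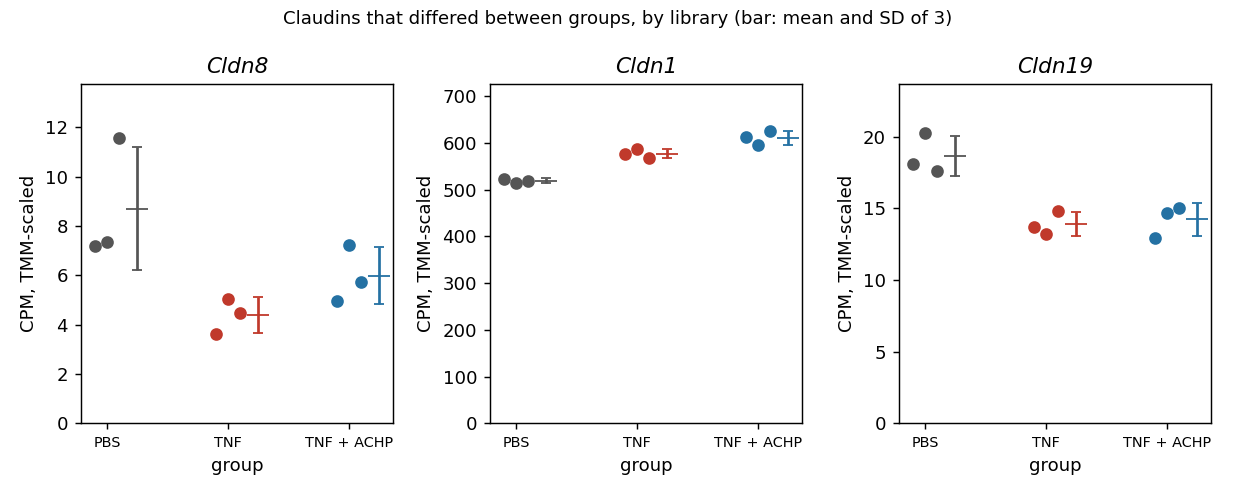
TMM-scaled CPM in each library (points) with the mean and SD of 3 libraries (bars) for Cldn8, Cldn1 and Cldn19 in the groups PBS, TNF and TNF with ACHP; each vertical axis starts at 0. Cldn8 is at 3.62 to 5.06 CPM with TNF against 7.20 to 11.6 with PBS, Cldn1 steps up from group to group, and Cldn19 is lower in both groups that received TNF.

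The other distal claudins were not called with TNF. Cldn4 had 892.9, 855.4 and 971.0 CPM with PBS and 932.9, 928.5 and 956.1 CPM with TNF, so that the TNF values fell within the PBS range. Its log2 fold change was 0.05, and the 95% interval of -0.03 to 0.13 leaves out a change as large as the estimate for Cldn8. Cldn3 had 46.4, 45.0 and 56.3 CPM with PBS and 49.7, 48.6 and 52.3 CPM with TNF (log2 fold change 0.02, interval -0.14 to 0.18). Its sign was not stable and turned to -0.04 without PBS replicate 2.

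Cldn7, which lines the basolateral membrane of collecting duct cells, had 148.1, 135.8 and 162.0 CPM with PBS and 137.7, 144.4 and 151.5 CPM with TNF. These overlap, with a log2 fold change of -0.04 and an interval of -0.15 to 0.07. PBS replicate 3 was the highest PBS library for Cldn3, Cldn4, Cldn7 and Cldn8 alike, and without it the value for Cldn7 was 0.03.

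The unequal behaviour of distal claudins can be read within each library as the ratio of Cldn8 to its neighbours, which any common scaling leaves unchanged. Cldn8 is the distal claudin called lower in these same libraries, so the ratios restate its fall and are no separate support. All of them share Cldn8 and are not independent of each other. The log2 ratio of Cldn8 to Cldn4, in CPM, was -6.95, -6.86 and -6.39 in PBS libraries, -8.01, -7.52 and -7.74 in TNF libraries, and -7.49, -7.00 and -7.36 in ACHP libraries. The TNF values lay below all others, and those with ACHP lay between the other groups without overlap. The TNF minus PBS difference of the ratio was -1.02 for Cldn4, -0.999 for Cldn3 and -0.93 for Cldn7. The exact two-sided permutation p was 0.1 for each, the smallest that 3 against 3 libraries allow, and 0.15 after Benjamini-Hochberg adjustment over 6 such tests. For TNF with ACHP minus TNF the differences were 0.47, 0.27 and 0.37 (exact permutation p = 0.1, 0.3 and 0.2), with groups that overlapped for Cldn3 and Cldn7.

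**Figure D3:**
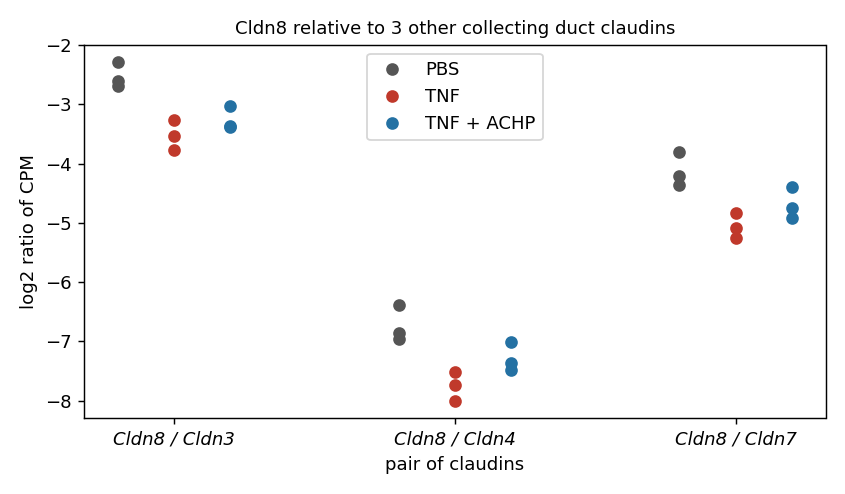
Log2 ratio of the CPM of Cldn8 to that of Cldn3, Cldn4 and Cldn7 in each library; grey points are PBS, red TNF and blue TNF with ACHP. In each pair the 3 TNF libraries lie below the 3 PBS libraries, by 0.93 to 1.02 on average (TNF minus PBS -0.93 to -1.02).

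Among the 10 genes, the claudins of the thick ascending limb and the proximal tubule gave no call with TNF. Outside the 10, Cldn19 of the thick ascending limb was called lower (-0.43) and is described below. Cldn16 of the thick ascending limb had 7.48, 6.35 and 7.25 CPM with PBS and 7.63, 6.00 and 6.02 CPM with TNF, which overlap (log2 fold change -0.09, interval -0.36 to 0.18). Cldn2 of the proximal tubule had 13, 12 and 12 counts with TNF, all under the 3 PBS counts, but the low counts left an interval from -1.41 to 0.31 around -0.55. A change in Cldn2 as large as that of Cldn8 was not detectable at this depth. Cldn10 had 8, 7 and 9 counts with TNF, within the range of the PBS counts.

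Cldn6 had 46.2, 45.4 and 49.9 CPM with PBS and 44.6, 44.8 and 42.4 CPM with TNF, and Cldn12 had 196.3, 208.7 and 194.0 CPM with PBS and 192.7, 187.0 and 188.3 CPM with TNF. Both sets of values did not overlap, yet neither gene was called (log2 fold changes -0.10 and -0.08, edgeR adjusted p = 0.34 and 0.28).

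**Figure D4:**
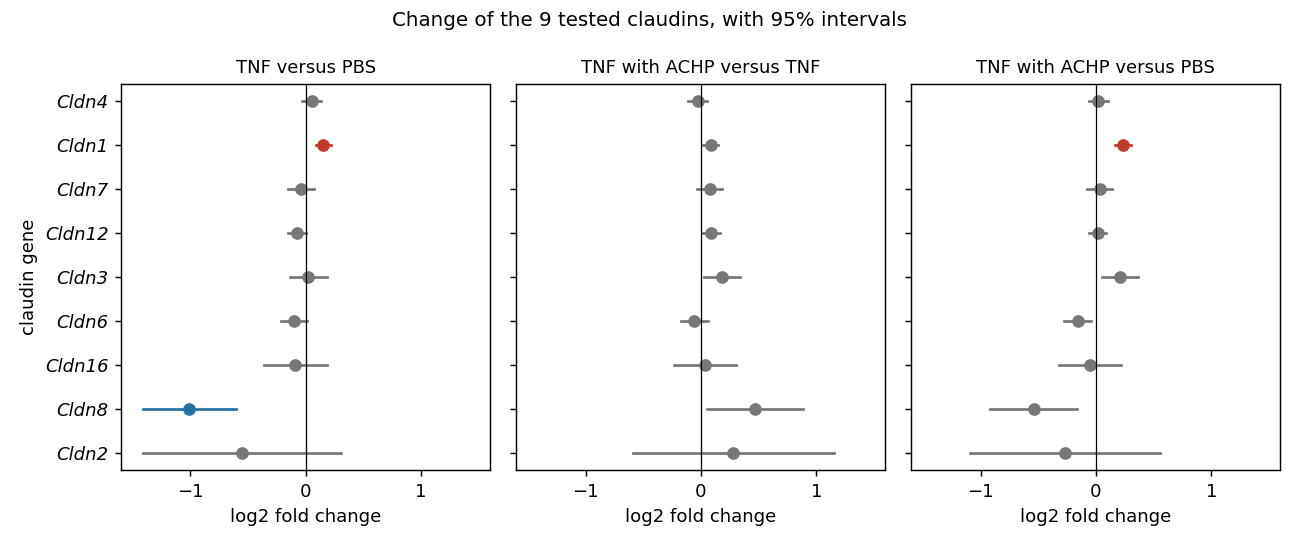
Log2 fold change (points) and 95% interval (lines) of the 9 tested claudins in the 3 comparisons, in the order of their PBS level; red marks genes called higher, blue called lower and grey not called at an edgeR adjusted p under 0.05. With TNF versus PBS only Cldn8 at -1.01 and Cldn1 at 0.15 are coloured, with TNF and ACHP versus TNF none is, and with TNF and ACHP versus PBS only Cldn1 at 0.24 is.

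Adding ACHP to TNF gave no called claudin among the 9 tested (0 by edgeR and 0 by DESeq2), beside 7.17% of all genes (2.71% higher and 4.46% lower). At an unadjusted p under 0.05 there were 4 of the 9, beside 3013 of all 14747 genes tested. The 4 were Cldn8, Cldn3, Cldn12 and Cldn1, all with higher values in the presence of ACHP. For Cldn8 the difference was 0.47 on the log2 scale (SE 0.20, interval 0.05 to 0.89, edgeR adjusted p = 0.18), with TNF_ACHP replicate 2 the highest library of its group and the other 2 at 4.97 and 5.74 CPM beside a highest TNF value of 5.06. With the neural library term it was 0.87 (edgeR adjusted p = 0.23).

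Cldn3 had 50.9, 59.5 and 60.2 CPM with TNF and ACHP, a difference of 0.18 from TNF (SE 0.08, edgeR adjusted p = 0.16), and its lowest value overlapped the TNF group. With the neural library term the difference was 0.31 (edgeR adjusted p = 0.35). Without TNF_ACHP replicate 1 the difference was 0.25 and called (edgeR adjusted p = 0.047). Cldn12 had 201.4, 204.8 and 198.8 CPM, all above the TNF libraries (0.09, edgeR adjusted p = 0.16, and 0.13 with the neural library term, edgeR adjusted p = 0.47). Cldn1 did not overlap its TNF values either, with a difference of 0.08 (SE 0.03, edgeR adjusted p = 0.13) and of 0.06 with the neural library term (edgeR adjusted p = 0.73): its level was not lower with the inhibitor present, while that of Vcam1 was.

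Cldn4 (891.8, 929.8 and 939.2 CPM), Cldn7 (149.8, 151.8 and 155.0 CPM) and Cldn6 (40.4, 42.3 and 44.1 CPM) differed from TNF by -0.03, 0.08 and -0.06 on the log2 scale. Each overlapped its TNF group. Cldn16 had 6.38, 6.92 and 6.95 CPM and Cldn2 had 6, 30 and 14 counts, again overlapping TNF. Cldn10 had 5, 7 and 4 counts, or 0.255 to 0.334 CPM, which lay below its TNF values of 0.439 to 0.576 CPM, and it was not tested.

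Set against PBS, cells with TNF and ACHP had 1 called claudin of 9 (11.1%), Cldn1, beside 6.04% of all genes (2.18% higher and 3.87% lower). Cldn1 was 17.8% higher, 0.24 on the log2 scale (SE 0.03, edgeR adjusted p = 1.5e-04), and with the neural library term 0.22 (edgeR adjusted p = 0.023). Cldn8 was at -0.54 (SE 0.18, edgeR adjusted p = 0.087). The outcome for Cldn8 depended on single libraries and on the filter on low counts. It was called without PBS replicate 1 (-0.65, edgeR adjusted p = 0.028), without TNF_ACHP replicate 2 (-0.72, edgeR adjusted p = 0.045) or without the filter (edgeR adjusted p = 0.0057). With the neural library term it was -0.25 (edgeR adjusted p = 0.78). Cldn3 was at 0.21 (edgeR adjusted p = 0.12), and was called without PBS replicate 3 (0.32, edgeR adjusted p = 0.0055) or without TNF_ACHP replicate 1 (0.27, edgeR adjusted p = 0.039). With the neural library term it was 0.29 and not called (edgeR adjusted p = 0.25).

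Cldn6 lay below all PBS values in this group (-0.16, edgeR adjusted p = 0.10, and -0.13 with the neural library term, edgeR adjusted p = 0.63), and the other tested members ranged from -0.27 for Cldn2 to 0.03 for Cldn7. The median over the 9 was 0.01, as over all genes. This comparison shares its PBS libraries with the first and its ACHP libraries with the second, so the 3 sets of values are not independent of each other.

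Beyond the 10 genes, 24 further numbered claudins were in the table and 4 of them were tested. Cldn19, the partner of Cldn16 in the thick ascending limb, had 18.1, 20.2 and 17.6 CPM in PBS libraries, 13.7, 13.2 and 14.8 CPM in TNF libraries, and 12.9, 14.7 and 15.04 CPM in ACHP libraries. Both groups that received TNF lay below PBS, with log2 fold changes of -0.43 (SE 0.09, edgeR adjusted p = 0.0048) and -0.39 (SE 0.09, edgeR adjusted p = 0.0088). With PBS replicate 1 as the only PBS library these were -0.38 and -0.34 and neither was called (edgeR adjusted p = 0.12 and 0.21), and the second was also not called with the neural library term (-0.34, edgeR adjusted p = 0.27) or without PBS replicate 2 (-0.32, edgeR adjusted p = 0.067). Per length Cldn19 stood at 4.37 ± 0.33 RPKM with PBS, below Cldn16 in all 3 libraries. Cldn16, its partner, was not called in any comparison.

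Cldn11, the claudin of oligodendrocyte myelin and of Sertoli cells, had 3, 37 and 40 counts in PBS libraries, 17, 11 and 7 in TNF libraries, and 3, 6 and 0 in ACHP libraries. It was called lower in the last comparison with PBS (-3.13, edgeR adjusted p = 0.009), but its low PBS library is the one low in neuron genes, and with the neural library term the value was -0.32 and not called (edgeR adjusted p = 0.95). For TNF versus PBS Cldn11 was at -1.09 (edgeR adjusted p = 0.30), and with that term at -1.56 and called (edgeR adjusted p = 0.02). Cldn23 (32, 25 and 40 counts under PBS) and Cldn34c1 (31, 23 and 30 counts under PBS) were not called in any comparison. Cldn5, a claudin of endothelium, Cldn9 and Cldn15 had at most 6 counts in any library and were not tested.

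Among the partners of claudins in the junction, 4 changed with TNF. Of 30 strand partners and scaffolds tested, 1 was higher and 3 were lower (13.3%, against 6.22% of all genes). Ocln, a 4-pass strand protein that runs beside claudins, went from a mean of 97.9 to 86.5 CPM (log2 fold change -0.18, edgeR adjusted p = 0.027). Prkci, the kinase of the polarity complex, was at -0.17 and Cgn, the scaffold cingulin, at 0.13. With ACHP against TNF, 3 of the 30 were higher and 2 lower (16.7%, against 7.17% of all genes), among them Cgn at -0.20 and Prkci at 0.13. The scaffold Tjp1, known as ZO-1, was lower in ACHP libraries against both TNF (-0.16) and PBS (-0.15). With the neural library term 1 of the 5 calls against TNF was left, Cgn (-0.28, edgeR adjusted p = 0.031), and Tjp1 was at -0.27 against TNF (edgeR adjusted p = 0.054) and -0.22 against PBS (edgeR adjusted p = 0.044).

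Of 20 genes of adherens junctions and desmosomes, 0 were higher and 3 were lower with TNF (15%, against 6.22% of all genes): Evpl (-0.40) and Ppl (-0.31), plakins of the cell cortex, and Nectin3 (-0.28), an adhesion receptor. With ACHP against TNF, 4 of the 20 were called (20%, against 7.17% of all genes). Nectin3 was higher (0.15) and so was Cdh16, the kidney cadherin (0.22), while Afdn and Dsg2 were lower. With the neural library term 1 of these 4 was called, Cdh16 (0.28, edgeR adjusted p = 0.042).

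The collecting duct genes listed beside the claudins had the most calls of the tubule segment lists: 1 of 9 tested was higher and 4 were lower with TNF (55.6%, against 6.22% of all genes), with a median log2 fold change of -0.25. Elf5, a transcription factor of principal cells, went from a mean of 5.74 to 2.10 CPM (-1.46), Scnn1b and Scnn1a, subunits of the epithelial sodium channel, were at -0.74 and -0.49, and Gata3 was at -0.25. Hsd11b2, which shields the mineralocorticoid receptor from glucocorticoid, was higher (0.59). The other tested genes of this list, among them Krt18 (a mean of 1050 CPM with PBS), Scnn1g (4.74 CPM) and Aqp4 (3.70 CPM), were not called with TNF. The summed level of the 16 collecting duct genes was 1206 to 1217 CPM with PBS and 1106 to 1113 CPM with TNF, most of it Krt18, and its defining marker Aqp2 was at 0 counts. Outside the tubule, the parietal epithelium and podocyte list, which holds Vcam1, had the same share of calls with TNF (55.6%). Of its 9 tested genes 3 were higher and 2 were lower.

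Among the other segments, 1 of 7 tested thick ascending limb genes was lower with TNF, and it was Cldn19. Of 5 proximal tubule genes tested 2 were lower, Aqp1 (-0.99) and Ggt1 (-0.57), and 1 of 7 distal convoluted tubule genes, Wnk4 (-0.53). Of 7 urothelial genes tested Psca was lower (-1.04), and Upk3a was at 0 counts. The share of all genes lower with TNF, to set beside each of these lists, was 2.91%. The summed level of the 10 fibroblast genes was 815.3 to 929.4 CPM in PBS libraries, 731.5 to 755.2 in TNF libraries and 630.0 to 694.9 in ACHP libraries, and that of the 10 macrophage genes 34.6 to 37.3, 33.9 to 36.9 and 16.3 to 17.7 CPM. No gene of either list was at 0 counts throughout. With ACHP against TNF, 4 of 9 tested fibroblast genes and 6 of 9 macrophage genes were called lower, beside 4.46% of all genes. With the neural library term the called fibroblast genes Col1a2, Col3a1, Acta2 and Postn lost their calls (edgeR adjusted p = 0.50 to 0.99). Of the macrophage genes Lyz2, C1qa and C1qb stayed called, and C1qc, Csf1r and Adgre1 did not. The part of such shifts in cell make-up in the claudin values was not tested.

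The genes most like Cldn8 over the 9 libraries, out of 10558 with at least 5 CPM on average, were Clba1 (Pearson r = 0.956 on log2 CPM), Abcc5 (0.954), Kantr (0.949), Pja2 (0.948) and Fam8a1 (0.946). The 9 points share 3 treatments and their libraries, and the values are a description without a test. Each of the 5 had all its TNF values below all its PBS values, as Cldn8 had, which choosing genes by their likeness to Cldn8 favours. Their changes were smaller than that of Cldn8, between -0.45 for Clba1 and -0.11 for Abcc5.

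Promoter windows of 250 bases before to 50 bases after a start, from RefSeq on GRCm38.p6, were held for 9 of the 10 members, in 13 windows; Cldn8 had none and is only named. A kB-type motif (GGGA, any 2 bases, then TTCC), of the kind bound by NF-kB, was in 0 of the 13 windows on either strand and in 1.47% of 32851 mouse windows of the same length. An AP-1 motif (TGANTCA, either strand) was in 7.81% of all windows and, among the members, in that of Cldn4, at positions -240 and -158, counted from 0 at the start base. The GC box (GGGCGG, either strand) was in 35.7% of all windows and in 8 of the 13 member windows. These windows belong to 7 of the 9 members, including Cldn3, Cldn4, Cldn6, Cldn7 and Cldn12, which were not called. Cldn1 had 2 GC boxes, at -42 and -14, in the window chr16:26371790-26372089 on the minus strand. It is shown because this gene rose with TNF both with and without ACHP. Capitals mark the GC boxes.
Cldn1: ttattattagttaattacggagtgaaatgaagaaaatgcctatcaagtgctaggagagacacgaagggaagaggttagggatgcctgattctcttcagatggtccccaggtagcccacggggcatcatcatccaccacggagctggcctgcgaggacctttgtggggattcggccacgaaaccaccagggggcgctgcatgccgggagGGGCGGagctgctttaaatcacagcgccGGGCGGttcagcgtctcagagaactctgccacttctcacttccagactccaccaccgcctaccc

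These matches are descriptions of the letters in short windows and say nothing of binding in these cells.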

How the data were processed

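RNA-seq libraries from primary renal cells were analysed from raw counts per Ensembl gene deposited by the authors. Per the file headers the counts were made with featureCounts 2.0.1 on Ensembl 109 annotation for GRCm39, and the submitters' processing notes list STAR, DESeq2 and the genome mm10; the intervals in the file are those of GRCm39, so its coordinates are given on that build. Symbols were matched for 52029 of 57010 identifiers (99.6% of counts).

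The analysis used edgeR 4.0.16 in R 4.3.3: genes kept by filterByExpr (14747), TMM scaling (0.993 to 1.01), quasi-likelihood fits of group means over all 9 libraries, and Benjamini-Hochberg adjustment over all genes tested, with calls at an adjusted p under 0.05. RPKM is TMM-scaled CPM per kilobase of the file's exon length. The common dispersion over all genes tested corresponds to a variation between replicates of 4.01% beyond counting noise. Single genes could vary more, as Cldn8 did with PBS (8.71 ± 2.49 CPM). Replicate libraries differed beyond sampling noise (1.86 to 6.54, chi-square over its degrees of freedom). The fit was tested on simulated data with the same dispersion for every gene and changes only in genes with more counts. That test does not cover differences in spread between genes, or genes with few counts such as Cldn2. Members, gene lists and alternatives were chosen with earlier results of these data known. Named were all members, other claudins with at least 10 counts, up to 4 called genes of a list with the largest change, Vcam1, and the 5 genes most like Cldn8; Cdh1, Epcam, marker genes named for their level and some smaller list changes were added after their values were seen. Alternatives were DESeq2 1.42.0, RLE factors, total counts, no filter, a stricter filter, only the 6 libraries compared, a replicate block, leaving out each library, an adjusted p under 0.01, and 2 terms for the neural libraries. PBS replicate 1 as the only PBS library was added after seeing the data. The values of 1 list gene that the naming rule selects are not reported here.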

Additional observations from a re-analysis of the deposited data

How the results depend on the processing

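With TNF versus PBS the 2 claudin calls, Cldn8 and Cldn1, held under all the alternatives tried but 1 and when any library was left out (2 to 2 called), and ended with PBS replicate 1 as the only PBS library (0 called; the lone library is assumed to vary like the other groups). With ACHP versus TNF, 1 claudin, Cldn3, was called without a filter, in a fit of only the 6 libraries and with PBS replicate 1 alone, and 0 to 1 when a library was left out. With TNF and ACHP versus PBS, 3 claudins were called without a filter (Cldn1, Cldn3 and Cldn8), 2 with the replicate block (Cldn3 at 0.21, edgeR adjusted p = 0.044), and 1 to 2 when a library was left out. No pairing by replicate number was seen: correlations were -0.13 to 0.17 for like numbers (2 of 9 over 0.1) and -0.20 to 0.23 for unlike numbers (3 of 18 over 0.1). With 3 libraries a group these values cannot exclude a paired design. The causes of these shifts were not tested.

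The neural library term moved list counts. With TNF it gave 2 called other claudins. With ACHP versus TNF it gave 1 tight junction gene (5 of 30 in the main fit) and 1 adherens junction gene (4 of 20). It gave 0 collecting duct (2 of 9) and 0 urothelial genes (2 of 7), where the main share of all genes was 7.17%. Against PBS it gave 1 tight junction gene (2 of 30 in the main fit). None was called there of the other claudin (2 of 4), adherens junction (4 of 20), collecting duct (4 of 9), thick ascending limb (2 of 7) and urothelial genes (1 of 7). The main share of all genes against PBS was 6.04%. DESeq2 gave 1 proximal tubule gene with TNF, 0 urothelial genes with ACHP versus TNF and 1 thick ascending limb gene against PBS. Over all genes 953, 143 and 162 were called with that term in the order of the comparisons, 262 and 130 with the neuron covariate in the latter 2, 442, 468 and 427 at an adjusted p under 0.01, 493 against PBS with only 6 libraries, and 418 and 237 for TNF and for TNF with ACHP against PBS replicate 1 alone. Leaving out a library gave 468 to 957, 541 to 1327 and 494 to 988.

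Signs turned only in uncalled claudins. With the neural term these were Cldn3 with TNF (-0.0149) and, with ACHP versus TNF, Cldn2 (-0.11), Cldn4 (0.0032) and Cldn16 (-0.10, and -0.14 with the neuron covariate). Leaving out a library gave, with TNF, -0.0425 to 0.14 for Cldn3 and -0.10 to 0.0297 for Cldn7; with ACHP versus TNF, -0.27 to 0.63 for Cldn2, -0.0237 to 0.17 for Cldn16 and -0.0013 to 0.10 for Cldn19; and against PBS, -0.83 to 0.0762 for Cldn2, -0.0201 to 0.0754 for Cldn4, -0.0305 to 0.10 for Cldn7 and -0.0057 to 0.0467 for Cldn12. Depth limits Cldn2 and Cldn10, with at most 30 counts in a library.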
